A study of Mus musculus with 4 samples.

Results

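The p38 MAPK and MK2 kinase family was taken as 10 named genes of 1 signaling cascade, namely the MAP3K *Map3k7* (TAK1), the MAP2Ks *Map2k3* (MKK3) and *Map2k6* (MKK6), the p38 isoforms *Mapk14* (p38α), *Mapk11* (p38β), *Mapk12* (p38γ) and *Mapk13* (p38δ), and the MAPKAP kinases *Mapkapk2* (MK2), *Mapkapk3* (MK3) and *Mapkapk5* (MK5). The members were chosen by their place in the cascade, with no threshold on their values, and each was found in exactly 1 row of a table of 55356 genes. Earlier results of these data were known when the choice was made. RNA from 4 cultures of immortalized bone marrow-derived macrophages was sequenced, with 1 library for each condition. Both cell lines came from *MK2*-KO mice, so both lack the endogenous kinase. One line was transduced with the empty retroviral vector pMMP-IRES-GFP (i*MK2*-KO +*GFP*, below +*GFP*), the other was transduced with *MK2* (i*MK2*-KO +*MK2*, below +*MK2*), and GFP-positive cells were sorted. Each line was left untreated (UT) or treated with 5 ng/ml IL-1α for 1 h. The labels give the genotype of the rescued line as wt, although it is a knockout line that carries *MK2* from the vector. With 1 line per vector, the effect of *MK2* and other differences between the 2 lines cannot be told apart.

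IL-1α binds its receptor on macrophages and activates TAK1, which phosphorylates MKK3 and MKK6. These dual-specificity kinases phosphorylate the threonine and the tyrosine of a Thr-Gly-Tyr motif in the activation loop of p38. Active p38α then phosphorylates and activates MK2 and MK3, which act on RNA-binding proteins such as tristetraprolin and thereby control the stability and translation of cytokine mRNAs, while MK2 and p38α also stabilize each other as proteins. The libraries measure mRNA, so neither phosphorylation nor protein amount is part of the values.

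All values are normalized counts, which are counts per gene that the authors divided by a size factor for each library and rounded. The column names point to the program salmon, so the counts are probably estimates and not direct read counts. The 4 libraries summed to between 24891906 and 25733071 normalized counts, with 17840 to 18152 genes above 0. All 10 macrophage markers tested reached at least 364 in each library, while of 18 markers of other cell types 11 were at 0 in all libraries and the highest value of any was 6. Because there is 1 library per condition, differences could not be compared with the spread between cultures and p-values are not given. Each log2 ratio was computed after adding 1 to both values, and it is followed by a 95% interval in brackets that covers counting error only, with 1 normalized count taken as 1 read. A gene was called different where this ratio was at least 1.5-fold, among the 12483 genes with a mean of at least 10. In bulk RNA, a change in the share of cells that express a gene and a change in RNA per cell cannot be told apart.

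Of the 10 members, 8 had a mean of at least 10. In untreated cells, 1 of these 8 was called higher and 2 were called lower in +*GFP* than in +*MK2* cells, beside 7.33% higher and 10.3% lower of all genes tested. After IL-1α the counts were again 1 higher and 2 lower, beside 8.41% and 11.2% of all genes. In both comparisons the higher gene was *Mapkapk3* and the lower genes were *Mapkapk2* and *Mapk11*. Ratios beyond counting error were more common, in the members as in all genes. In untreated cells 2 members, *Mapkapk3* and *Mapk14*, were higher and 2 lower beyond counting error, beside 30.8% and 26.9% of all genes, and after IL-1α 4 were higher and 4 lower, beside 33.7% and 26.3%. With scaling to *Gapdh*, 6 members were beyond counting error in each of these comparisons. The median log2 ratio of the 8 members was -0.04 in untreated and -0.07 in IL-1α-treated cells, and that of all genes was 0.02 and 0.03. *Mapkapk2* is the gene that the vector carries, and *Mapk11* reached the minimum mean only through the +*MK2* libraries, in which it was high.

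**Figure D1:**
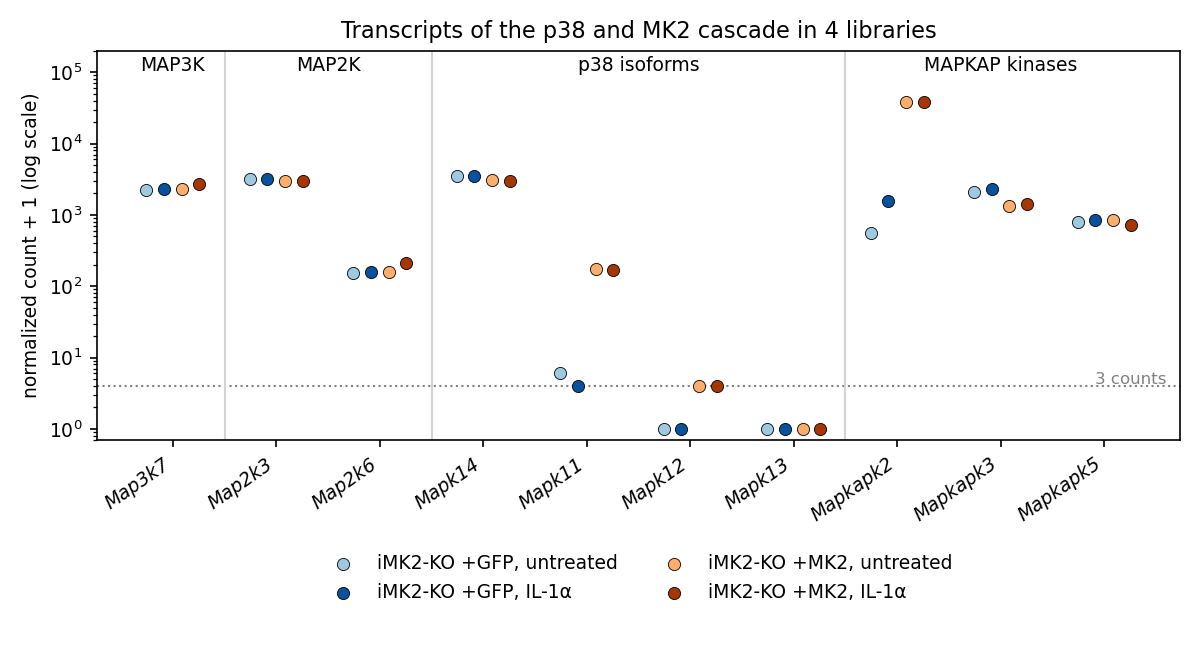
Normalized counts of the 10 kinase genes in the 4 libraries on a log axis, 1 point per library, with 1 added to each value and a dotted line at 3 counts. *Mapkapk2* and *Mapk11* differ most between the lines, with highest to lowest ratios of 68.4 and 57.3, while the points of *Map2k3* nearly coincide, and *Mapk12* and *Mapk13* lie at 0 to 3.

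The kinases upstream of p38 varied little between the libraries. *Map3k7* encodes TAK1, the MAP3K that links the IL-1 receptor complex to both the p38 and the NF-κB pathway, and the table places it at chr4:31964097-32023467. It had 2231 normalized counts in untreated and 2289 in IL-1α-treated +*GFP* cells, and 2307 and 2698 in +*MK2* cells. The IL-1α-treated rescued cells stood above the other 3 libraries, which lay close together. The log2 ratio of IL-1α to untreated was 0.23 [0.15, 0.31] in the rescued line and 0.04 [-0.05, 0.12] in the line with *GFP*, and these responses differed by -0.19 [-0.31, -0.07] on the log2 scale. This difference was larger than counting error but well under 1.5-fold. Between the lines the ratio was -0.05 [-0.13, 0.04] in untreated and -0.24 [-0.32, -0.16] in IL-1α-treated cells. Of the 31-base words in the GENCODE M21 transcripts of *Map3k7*, 8.37% also occur in other genes, mainly its pseudogene *Gm8188*, which was listed at 3 and 0 with *GFP* and at 2 and 2 with *MK2*.

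*Map2k3*, at chr11:60822859-60843637, encodes MKK3, an activator of p38. It had 3140 and 3172 normalized counts in +*GFP* cells without and with IL-1α, and 3026 and 2960 in +*MK2* cells. Its highest value was 1.07 times its lowest, the smallest range among the 8 expressed members. The log2 ratio of the lines was 0.05 [-0.02, 0.13] in untreated cells and 0.10 [0.03, 0.17] after IL-1α, and the latter was -0.002 when all libraries were scaled to *Gapdh*.

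*Map2k6* encodes MKK6, the second p38 activator, and lies at chr11:110289948-110416348. It had 154 and 157 normalized counts in untreated and treated +*GFP* cells, and 158 and 212 in +*MK2* cells. The 3 lower libraries were within counting error of each other, and the IL-1α-treated rescued cells were higher, with a log2 response of 0.42 [0.12, 0.73]. The response of the line with *GFP* was 0.03 [-0.30, 0.36], and the difference between the responses, -0.39 [-0.85, 0.06], did not exceed counting error. Per kb of exon sequence, *Map2k3* had 893 to 957 and *Map2k6* 44.7 to 61.6 normalized counts, so the mRNA of MKK3 was the more abundant in all 4 libraries.

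The 4 p38 isoforms differed strongly in level. All carry the Thr-Gly-Tyr motif that MKK3 and MKK6 phosphorylate, and the coding sequence around it shows how alike the isoforms are at the site they share and that they can still be told apart in short reads. Each sequence is 45 bases of exon 7 of 12, read 5′ to 3′ on the coding strand from the GENCODE M21 annotation of GRCm38, with the codons of Thr, Gly and Tyr in capitals. *Mapk14* is on the plus strand at chr17:28728381-28728425, *Mapk11* on the minus strand at chr15:89145848-89145892, *Mapk12* on the minus strand at chr15:89134658-89134702 and *Mapk13* on the plus strand at chr17:28776326-28776370.
Mapk14: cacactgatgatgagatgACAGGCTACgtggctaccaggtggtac
Mapk11: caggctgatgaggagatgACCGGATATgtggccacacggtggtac
Mapk12: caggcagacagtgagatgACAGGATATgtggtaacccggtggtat
Mapk13: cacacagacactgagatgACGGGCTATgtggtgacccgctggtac
The threonine is codon 180 in *Mapk14*, *Mapk11* and *Mapk13* and codon 183 in *Mapk12*. Of the 45 bases, *Mapk14* shares 36 with *Mapk11*, 33 with *Mapk12* and 35 with *Mapk13*, and the closest pair is *Mapk12* and *Mapk13* with 37. Over whole transcripts the isoforms share no 31-base word with each other. *Mapk14* had none of 4495 in common with another family member or another gene. *Mapk11* had 5 of 2964 in common with family members other than the p38 isoforms, and 17, or 0.574%, with genes outside the family. *Mapk12* had 121 of 3976, or 3.04%, in common with genes outside the family.

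*Mapk14*, at chr17:28910303-28967380 in the table, encodes p38α, the main isoform in macrophages and the one that binds and activates MK2. It had 3545 and 3515 normalized counts in UT and IL-1α-treated +*GFP* cells, and 3093 and 3031 in +*MK2* cells. Both libraries with *GFP* were above both rescued libraries. The log2 ratio of the lines was 0.20 [0.13, 0.27] in untreated and 0.21 [0.14, 0.28] in IL-1α-treated cells, beyond counting error but under 1.5-fold, and when the libraries were scaled to *Gapdh* it was 0.14 and 0.11. IL-1α left the transcript within counting error of the untreated level, with a log2 ratio of -0.01 [-0.08, 0.06] in the line with *GFP* and -0.03 [-0.10, 0.04] in the rescued line.

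*Mapk11* encodes p38β, which is close to p38α in sequence and also activates MK2, and is at chr15:89026689-89033831. It had 5 and 3 normalized counts in untreated and treated +*GFP* cells, against 172 and 166 in +*MK2* cells. The lines did not overlap, and the values within a line were close. The log2 ratio was -4.85 [-6.75, -3.85] in untreated cells and -5.38 [-8.08, -4.22] after IL-1α, that is 34.4-fold and 55.3-fold lower by the plain ratio of the values in the line with *GFP*. In both comparisons together, 50 of the 12483 genes, or 0.401%, were at least as far lower as *Mapk11*. The low values of 5 and 3 do not carry an IL-1α response, since their log2 ratio of -0.58 had an interval of [-3.42, 1.62]. In the rescued line the response was -0.05 [-0.37, 0.26]. Even in the rescued line p38β mRNA was a small part of the total: per kb of exon sequence, *Mapk11* had 59.6 normalized counts in untreated rescued cells and *Mapk14* 707. The sum of *Mapk14* and *Mapk11* was 3550 and 3518 in +*GFP* cells and 3265 and 3197 in +*MK2* cells.

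*Mapk12*, at chr15:89014787-89024906, encodes p38γ and was listed at 0 in both libraries with *GFP* and at 3 in both rescued libraries. These values are at or under 3 counts, the most that a count of 0 allows at the 95% level, so no fold was formed. *Mapk13* encodes p38δ, lies next to *Mapk14* at chr17:28988271-28999207 and was listed at 0 in all 4 libraries.

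*Mapk11* and *Mapk12* are neighbors on chromosome 15, and the genes around them were therefore read as well, a choice made after the values of *Mapk11* had been seen. The 9 other genes that start within 150 kb of *Mapk11* and had a mean of at least 10 had log2 ratios between -0.71 and 0.44 in untreated cells and between -0.80 and 0.34 after IL-1α. The lowest of them was *Hdac10*, a histone deacetylase gene on the far side of *Mapk12*, with 451 and 413 normalized counts in +*GFP* and 736 and 720 in +*MK2* cells. *Plxnb2*, a semaphorin receptor gene on the other side, had 11027 and 11142 against 10657 and 10501. None of these neighbors came near the difference of *Mapk11*.

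**Figure D2:**
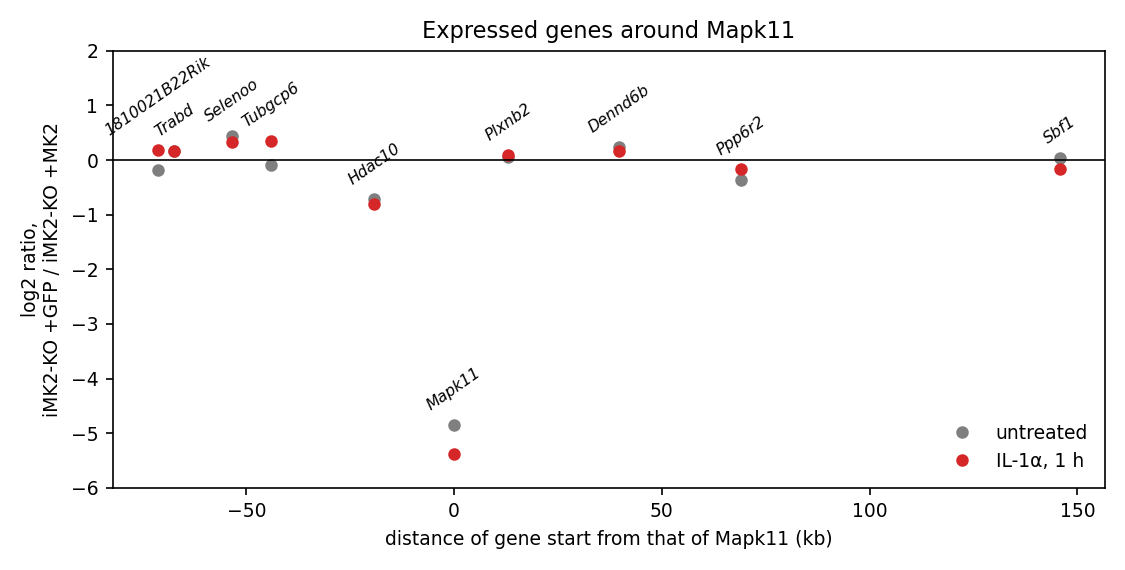
Log2 ratio of +*GFP* to +*MK2* cells for *Mapk11* and the 9 expressed genes within 150 kb, placed by the distance of their start from that of *Mapk11* in kb, for untreated and IL-1α-treated cells. *Mapk11* is at -4.85 and -5.38, while the neighbors lie between -0.80 and 0.44.

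The promoters of *Mapk11* and *Mapk14* are shown because the first transcript differed strongly between the lines and the second little. These are the 250 bases before the transcription start in RefSeq, build GRCm38.p6, read 5′ to 3′ on the strand of the gene, with the SP1 motif GGGCGG and its reverse complement in capitals. *Mapk11* is on the minus strand at chr15:89149607-89149856 and the first of the *Mapk14* promoters on the plus strand at chr17:28691092-28691341.
Mapk11 promoter: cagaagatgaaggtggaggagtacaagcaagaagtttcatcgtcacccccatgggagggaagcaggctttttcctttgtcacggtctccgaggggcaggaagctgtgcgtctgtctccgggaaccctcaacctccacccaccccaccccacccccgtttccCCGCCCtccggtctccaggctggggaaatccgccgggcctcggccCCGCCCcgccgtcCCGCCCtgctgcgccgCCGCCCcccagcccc
Mapk14 promoter: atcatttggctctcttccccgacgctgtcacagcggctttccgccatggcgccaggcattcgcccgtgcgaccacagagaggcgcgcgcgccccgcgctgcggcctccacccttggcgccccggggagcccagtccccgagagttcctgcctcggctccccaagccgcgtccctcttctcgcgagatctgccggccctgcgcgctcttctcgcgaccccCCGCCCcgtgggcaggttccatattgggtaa
The *Mapk11* promoter holds 18 CG dinucleotides at a GC content of 68% and 4 SP1 motifs, and the *Mapk14* promoter shown holds 30 at 70.4% and 1 SP1 motif. A second *Mapk14* promoter, at chr17:28692318-28692567 and not shown, holds 14 CG dinucleotides at 48.4% and no SP1 motif. Over all 32536 mouse promoters in the same source the medians were 6 CG dinucleotides and 52.4% GC, and 33% of promoters had an SP1 motif, against 7 of the 14 promoters of the family. The motifs of 3 factors downstream of IL-1α or p38 were also searched. For NF-κB, only 1 pattern with a fixed run of T was searched, which does not cover all forms of its motif. This pattern occurred in 1 of the 14 promoters, that of *Map3k7*, and in 1.4% of all promoters. These values are therefore not frequencies of the NF-κB consensus. The AP-1 motif TGANTCA occurred in 1 of the 14, that of *Map2k6*, and in 6.73% of all promoters. The CRE motif TGACGTCA occurred in none of the 14 and in 1.56% of all promoters. All motifs were searched on both strands, and a match describes letters in this window, not a bound site.

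At the end of the cascade are the MAPKAP kinases. *Mapkapk2*, which encodes MK2 and is disrupted in both lines, is at chr1:130981437-131025563. It had 561 normalized counts in untreated and 1585 in IL-1α-treated +*GFP* cells, and 38357 and 38141 in +*MK2* cells. The lines were far apart, with a log2 ratio of -6.09 [-6.22, -5.98] in untreated and -4.59 [-4.66, -4.52] in IL-1α-treated cells, that is 68.4-fold and 24.1-fold lower in the line with *GFP*. The values are sums over the gene, so transcripts of the disrupted locus and of the vector cannot be told apart within them, and the value in the line with *GFP* does not show that a functional MK2 is made.

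In +*GFP* cells the remaining *Mapkapk2* transcript was 2.83-fold higher after IL-1α, a log2 ratio of 1.497 [1.36, 1.64]. In the rescued line the ratio was -0.01 [-0.03, 0.01]. The responses thus differed by 1.505 [1.37, 1.65] on the log2 scale. Of the 12483 genes, 138, or 1.11%, were at least as far higher after IL-1α in the line with *GFP*. In the rescued line transcripts of the vector are part of the value, so a response of the disrupted locus alone was not measured there. *Gm37084*, a gene model of unknown function within the *Mapkapk2* span at chr1:131013989-131019886, had 12 and 30 normalized counts in the line with *GFP* and 4 and 7 in the rescued line. Its log2 response was 1.25 [0.31, 2.42] in the former. Its ratio of the lines was 1.38 [-0.14, 3.67] in untreated cells, within counting error, and 1.95 [0.88, 3.53] after IL-1α. Both were opposite in sign to those of *Mapkapk2*. *Gm37084* was picked after its position was seen and not by the rule for named genes.

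*Mapkapk3*, at chr9:107132126-107167076, encodes MK3, which is activated by p38 like MK2 and shares substrates with it. It had 2072 and 2332 normalized counts in +*GFP* cells and 1350 and 1440 in +*MK2* cells, so both libraries with *GFP* were above both rescued libraries. The transcript was 1.53-fold higher in untreated cells, a log2 ratio of 0.62 [0.52, 0.72], and 1.62-fold higher after IL-1α, 0.70 [0.60, 0.79]. With scaling to *Gapdh* the log2 ratio in untreated cells was 0.56, which is under 1.5-fold. Of all genes tested, 480, or 3.85%, were at least as far higher in both comparisons. The response to IL-1α was 0.17 [0.08, 0.26] in the line with *GFP* and 0.09 [-0.02, 0.20] in the rescued line, and these responses differed by 0.08 [-0.06, 0.22], within counting error. *Mapkapk2* and *Mapkapk3* had no 31-base word in common. Per kb of exon sequence *Mapkapk3* had 374 and *Mapkapk2* 184 normalized counts in untreated +*GFP* cells, and after IL-1α 421 and 521. In the rescued line *Mapkapk2* had 12613 and 12542 and *Mapkapk3* 244 and 260, computed over the whole exon length of *Mapkapk2*, since the part of the transcript in the vector is not given in the sources used here.

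*Mapkapk5*, at chr5:121663101-121683968, encodes MK5, which binds the atypical MAP kinases ERK3 and ERK4. It had 783 and 849 normalized counts in +*GFP* cells and 846 and 723 in +*MK2* cells. The log2 response to IL-1α was 0.12 [-0.03, 0.26] in the line with *GFP* and -0.23 [-0.37, -0.08] in the rescued line, and the difference between these, 0.34 [0.14, 0.55], exceeded counting error but was under 1.5-fold. This gene is uncertain in the counts, because 53.9% of the 31-base words of its GENCODE M21 transcripts also occur in other genes. Most of these are in *Adam1a*, the next gene, and in *Gm42878*, which spans both, and these were listed at 63, 27, 40 and 48 and at 44, 33, 22 and 29 in the order untreated and treated with *GFP*, untreated and treated with *MK2*.

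Normalized counts per kb of exon sequence allow a rough comparison of levels between genes. In untreated +*GFP* cells *Map2k3* came first with 947, followed by *Mapk14* with 810, *Mapkapk3* with 374 and *Map3k7* with 347. Below these were *Mapkapk5* with 245, *Mapkapk2* with 184, *Map2k6* with 44.7 and *Mapk11* with 1.73. In untreated +*MK2* cells *Mapkapk2* came first with 12613, followed by *Map2k3* with 913, *Mapk14* with 707, *Map3k7* with 359, *Mapkapk5* with 265, *Mapkapk3* with 244, *Mapk11* with 59.6 and *Map2k6* with 45.9. MKK3 and p38α mRNA thus led the members other than *Mapkapk2* in both lines, while in untreated cells *Mapkapk3* stood above *Map3k7* and *Mapkapk5* with *GFP* and below them with *MK2*. After IL-1α in +*MK2* cells *Mapkapk3*, with 260, was again above *Mapkapk5*, with 226, and below *Map3k7*, with 420. With 1 library per condition the order of close neighbors such as *Mapkapk3* and *Map3k7* has no replicate error, and it also depends on the exon lengths used. The place of *Mapkapk5* is uncertain because 53.9% of its 31-base words also occur in other genes. For *Mapkapk2* in the rescued line, the exon length used may not be that of the vector transcript.

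**Figure D3:**
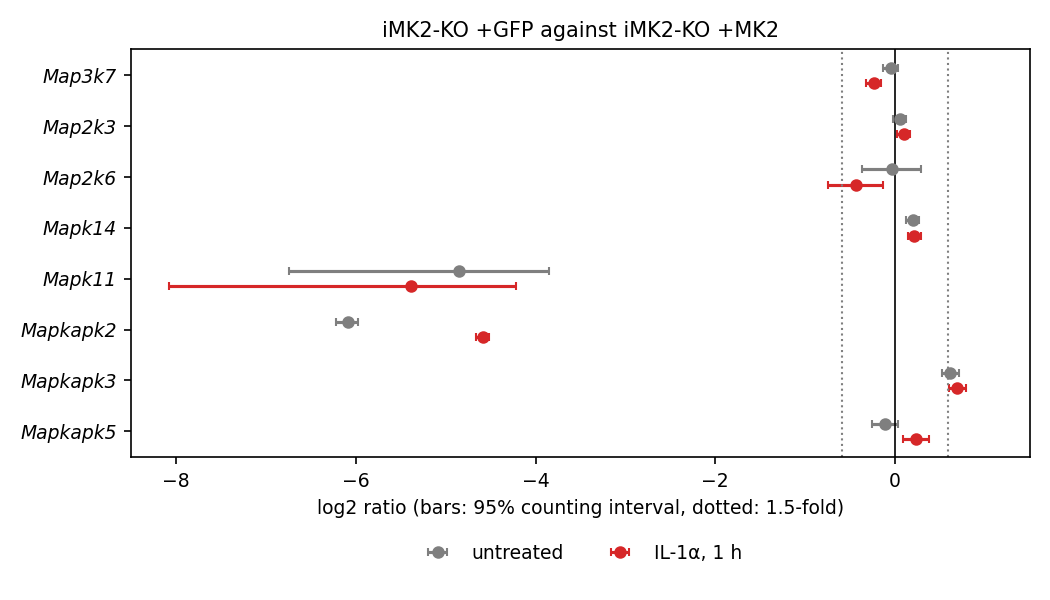
Log2 ratio of +*GFP* to +*MK2* cells for the 8 expressed members, untreated and after IL-1α, with 95% intervals for counting error and dotted lines at 1.5-fold. *Mapkapk3* lies above the upper line at 0.62 and 0.70, *Mapkapk2* and *Mapk11* lie below -4, and the other 5 lie within 0.5 of 0.

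Within each line, IL-1α changed few members. In +*GFP* cells 1 of 8 members was called higher and 1 lower, beside 4.7% and 4.29% of all genes tested. At 2-fold the count was 1 higher and none lower, beside 2.25% and 1.59% of all genes. The higher gene was *Mapkapk2* and the lower was *Mapk11*, which went from 5 to 3 and was within counting error. Ratios beyond counting error were found for 2 members, *Mapkapk2* and *Mapkapk3*, both higher, beside 20% of genes higher and 12.3% lower. In +*MK2* cells no member was called, beside 2.72% and 2.92% of all genes, while beyond counting error *Map2k6* and *Map3k7* were higher and *Mapkapk5* was lower, beside 11.4% and 8.23%. The median log2 response of the 8 members was 0.03 in the line with *GFP* and -0.02 in the rescued line, against 0.01 over all genes in both. The response of the line with *GFP* exceeded that of the rescued line by at least 1.5-fold in 1 member, *Mapkapk2*, and fell below it by that much in none, beside 6.57% and 6.1% of all genes. For *Mapkapk2* the value of the rescued line includes transcripts of the vector.

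**Figure D4:**
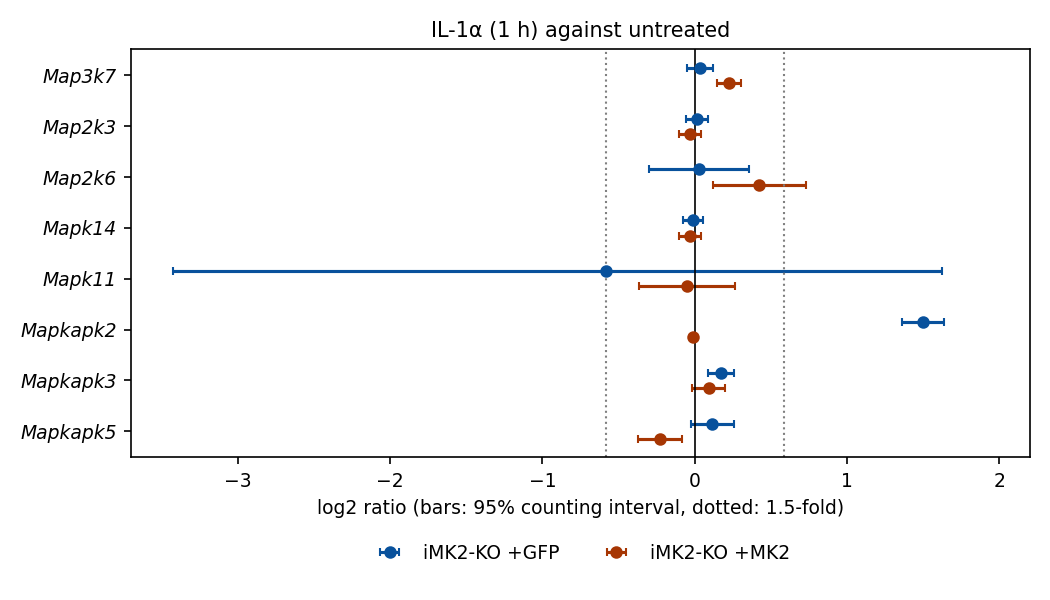
Log2 ratio of IL-1α-treated to untreated cells for the 8 expressed members in each line, with 95% intervals for counting error and dotted lines at 1.5-fold. In the line with *GFP* the response of *Mapkapk2* is 1.497, while *Mapk11* has an interval from -3.42 to 1.62, and in the rescued line the response of every member lies within 1.5-fold.

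Around the 10 kinases, 79 further genes of the pathway were read in 6 lists, of which 71 had a mean of at least 10. The lists were chosen with earlier results of these data known, so the shares given beside them are not an independent comparison. Between the lines in untreated cells 2 of the 71 were called higher and 6 lower, beside 7.33% and 10.3% of all genes, and after IL-1α 9 were higher and 5 lower, beside 8.41% and 11.2%. In response to IL-1α, 9 were higher and 3 lower in +*GFP* cells, beside 4.7% and 4.29% of all genes, and 2 were higher and none lower in +*MK2* cells, beside 2.72% and 2.92%. The median log2 response was 0.02 and 0.03, close to the 0.01 of all genes.

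Of 20 MAP3Ks and adaptors upstream of p38, 1 was called higher and 3 lower in untreated +*GFP* cells relative to rescued cells, and 2 and 2 after IL-1α, which is near the share of all genes given above. *Map3k8*, the kinase Tpl2 that feeds ERK signaling in macrophages, had 150 normalized counts in untreated and 487 in treated cells with *GFP*, and 85 and 201 in rescued cells. It was called higher after IL-1α in both lines, with log2 ratios of 1.69 [1.43, 1.97] and 1.23 [0.87, 1.62]. *Gadd45a*, an adaptor that binds MAP3K4, had 20 and 74 in the line with *GFP* and 38 and 32 in the rescued line, and its responses differed by 2.08 [1.08, 3.21]. *Map3k12*, called lower in the line with *GFP* without and with IL-1α, had 246 and 197 against 421 and 387. *Gadd45b*, called lower in untreated cells only, had 658 and 788 against 1100 and 1043. By its values above, *Gadd45a* was called lower with *GFP* in untreated cells and higher after IL-1α. *Map3k1*, which acts mainly on JNK, had 2332 and 1469 in the line with *GFP*, a log2 response of -0.67 [-0.76, -0.57], and 1828 and 1846 in the rescued line. *Gadd45g* was called lower with *GFP* after IL-1α from low values of 8 and 19, and its log2 ratio of -1.15 had an interval of [-2.65, 0.01].

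None of the 12 expressed genes in the list of other MAP kinases and their MAP2Ks was called in any comparison. The same held for the 4 other kinases downstream of p38, beside the shares of all genes given above. Of the 10 expressed scaffolds and phosphatases, 5 were called higher after IL-1α in +*GFP* cells, namely *Dusp8*, *Dusp2*, *Dusp16*, *Dusp1* and *Dusp4*, beside 4.7% of all genes. In +*MK2* cells 1 was called higher, *Dusp8*, beside 2.72% of all genes. These genes encode dual-specificity phosphatases that remove phosphate from MAP kinases. Since the list was chosen with earlier results of these data known, the contrast with all genes is descriptive only. *Dusp2* had 177 and 715 normalized counts in the line with *GFP* and 282 and 319 in the rescued line, and *Dusp16* had 490 and 1261 against 370 and 362. *Dusp1*, the early response phosphatase MKP-1, had 85 and 188 against 61 and 86, and *Dusp4* had 1924 and 3764 against 2513 and 2683. *Dusp8* had 3 and 115 in the line with *GFP* and 8 and 23 in the rescued line, so that its response of 4.86 [3.68, 7.56] rests on 3 counts in untreated cells. *Ptpn7*, a tyrosine phosphatase of ERK and p38 in leukocytes, was lower in the line with *GFP* at 2651 and 2537 against 4153 and 4168.

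Of the 13 expressed substrates of the MAPKAP kinases, 1 was called higher and none lower in untreated +*GFP* cells relative to rescued cells. After IL-1α 2 were higher and 1 lower, beside 8.41% and 11.2% of all genes. In response to IL-1α, 1 was higher and 1 lower in +*GFP* cells, beside 4.7% and 4.29% of all genes. None was called in +*MK2* cells, so most substrates were not called in any comparison. *Lsp1*, a leukocyte actin-binding protein that MK2 phosphorylates, was called higher in +*GFP* than in rescued cells without and with IL-1α. It had 1870 and 1766 normalized counts in the line with *GFP* and 187 and 143 in the rescued line, log2 ratios of 3.31 [3.10, 3.55] and 3.62 [3.38, 3.88]. *Zfp36*, which encodes tristetraprolin, had 641 and 2569 in the line with *GFP* and 788 and 814 in the rescued line, and its responses differed by 1.95 [1.76, 2.15]. The related *Zfp36l2* went the other way after IL-1α, with 3729 and 2383 in the line with *GFP* and 4238 and 4321 in the rescued line. *Hspb1*, the small heat shock protein whose phosphorylation is often read as MK2 activity, was listed at 0 in all libraries. Of 12 transcription factors regulated by p38, none was called between the lines in untreated cells. After IL-1α 1 was higher and 1 lower with *GFP*, beside 8.41% and 11.2% of all genes. In response to IL-1α, 1 was called higher in the line with *GFP*, beside 4.7% of all genes, and none in the rescued line. The higher gene was *Cebpb* in both cases, with 1777 and 2713 normalized counts against 1627 and 1776 in the rescued line. *Ddit3*, the stress factor CHOP, had 147 and 116 in the line with *GFP* and 145 and 198 in the rescued line, so that it was called lower with *GFP* after IL-1α.

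**Figure D5:**
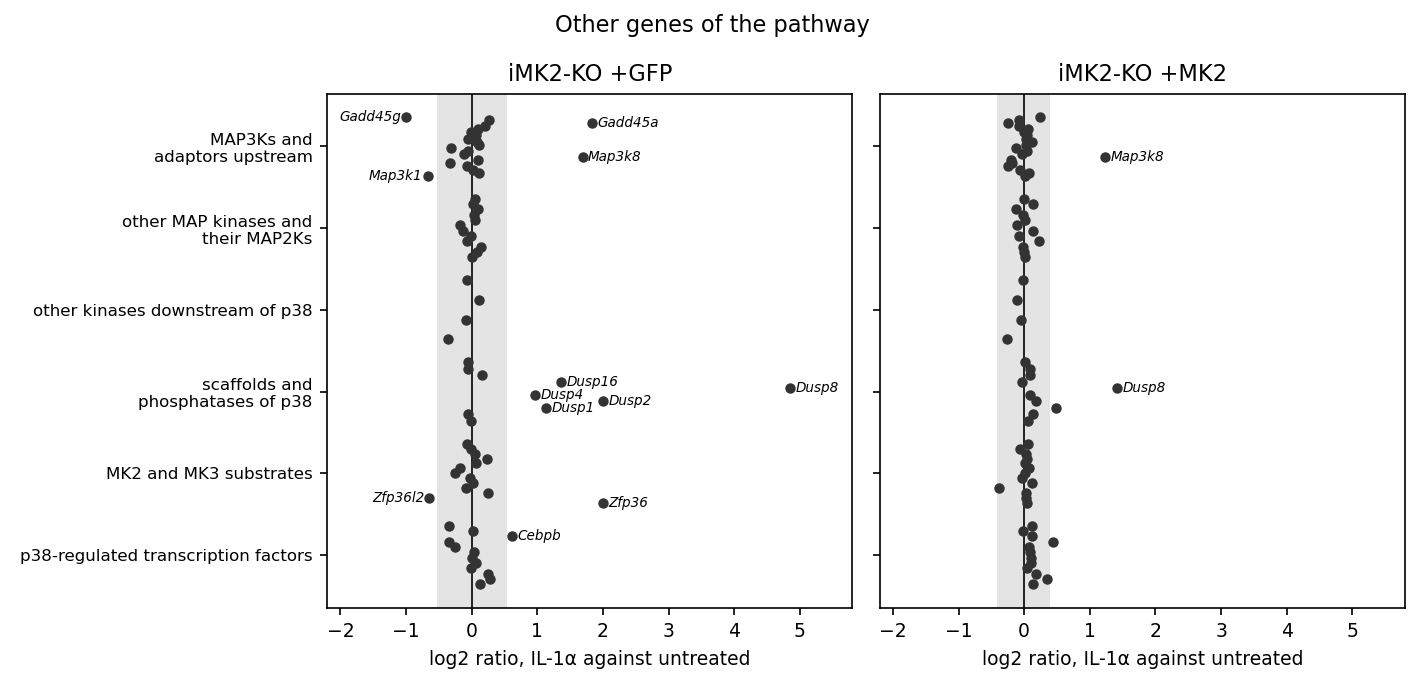
Log2 ratio of IL-1α-treated to untreated cells for the 71 expressed pathway genes by list, with 1 panel per line, 1 point per gene, names for genes called at 1.5-fold and a grey band that holds the central part of all genes tested, from which the lowest and the highest 5% are left out. In the line with *GFP* 5 of 10 genes among the scaffolds and phosphatases are named, and in the rescued line 1.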

How the data were processed

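RNA of 1 culture per condition was sequenced. The labels describe poly(A) selection, a stranded kit and paired reads of 38 bases, whereas the study's methods describe ribosomal RNA depletion and single reads, so the preparation is uncertain. The authors deposited 1 table with a score per gene and library, which are DESeq2-normalized counts rounded to whole numbers. The submitters' processing notes name GRCm38 and DESeq2, and column names point to salmon, with no version given. The comparisons had been planned for either counts or normalized values, and the values were used as deposited, with no further normalization and no count model. The reads behind each value are unknown. Of 52080 genes of the table that are also in GENCODE M21 (GRCm38), 1499, or 2.88%, had the same start, while 98.9% had the same span. Gene positions are therefore given as the table has them, in a build it does not name, and sequences and sequence shares are given in GRCm38.

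Log2 ratios were formed with a pseudocount of 1 in Python 3.11.15 with numpy 2.4.6 and pandas 2.3.3. The 95% intervals are exact Clopper-Pearson intervals of the share of both values (scipy 1.17.1), and for the difference between responses the conditional exact interval of the odds ratio. They cover counting error only, not variation between cultures. The ratios, intervals and calls were tried on simulated counts that hold counting error only. Such counts have no spread between cultures, so the calls were not tested against it. Genes with a mean of at least 10 were counted as called at 1.5-fold, and a second limit of 2-fold was tried. The minimum mean, the pseudocount, the scaling and the reads per normalized count were also varied. Levels were compared between genes per kb of exon union from GENCODE M21. Named genes are the 10 members, the 3 pathway genes furthest up and down in each comparison and list, and the 3 genes with the nearest profile to *Mapkapk2*, *Mapkapk3* and *Map2k3*. Genes named outside this rule, after their values were seen, are *Dusp1*, *Dusp4*, *Hspb1*, the genes that overlap, neighbor or share sequence with a member, the genes nearest to *Mapk11* in profile, the macrophage markers and pathway genes with opposite responses in the lines. The members and lists were chosen with earlier results of these data known.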

Additional observations from a re-analysis of the deposited data

Results flagged for a closer look

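Responses to IL-1α of opposite sign in the lines, with a difference beyond counting error, were found for 2 of the 8 expressed kinases and for 16 of the 71 expressed pathway genes. The share of all genes that meet this rule was not computed, so these counts cannot be called high or low. The pairs below are the log2 responses in +*GFP* and in +*MK2* cells. *Mapkapk2* had 1.497 and -0.0081, and *Mapkapk5* had 0.12 and -0.23. The *Mapkapk2* value of the rescued line includes transcripts of the vector, so the lines do not measure the same set of transcripts for this gene. Among the pathway genes, those with the positive response in +*GFP* cells were *Gadd45a* (1.84 and -0.24), *Dusp16* (1.36 and -0.031), *Gadd45b* (0.26 and -0.077), *Tab3* (0.20 and -0.076), *Mapk6* (0.15 and -0.018), *Mknk1* (0.10 and -0.11) and *Map2k4* (0.091 and -0.12). Those with the negative response there were *Map3k1* (-0.67 and 0.014), *Zfp36l2* (-0.65 and 0.028), *Usf1* (-0.35 and 0.12), *Ddit3* (-0.34 and 0.45), *Elk4* (-0.26 and 0.070), *Tsc2* (-0.25 and 0.016), *Mapk9* (-0.13 and 0.13), *Mapk7* (-0.076 and 0.23) and *Ube2j1* (-0.076 and 0.065). Both responses were beyond counting error in 2 of the pathway genes, *Mapk9* and *Mknk1*, whose responses were small, and in neither kinase. With 1 library per condition these differences were set against counting error alone and were not tested between cultures.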

How the results depend on the processing

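Of 400 log2 ratios of members under the alternatives, 395 stayed inside their counting interval or close to the main value. Another 5 moved further, and none of the called ratios changed sign. The 5 were all ratios of the lines after IL-1α with scaling to *Gapdh*, which shifted the median of all genes by -0.10 on the log2 scale. Only the pseudocount and the scaling enter a ratio, so under the other alternatives the ratios were the same by construction. Differences between responses were not set against an interval in this count, so none of them could be counted as moved. Uncalled ratios of *Map2k3*, *Map2k6*, *Map3k7* and *Mapk14* within 0.10 of 0 changed sign when scaled to *Gapdh* or, for responses, to total counts. Between the lines in untreated cells 3 members were called, and 2 with scaling to *Gapdh* or at 2-fold, where *Mapkapk3* was not called. Between the lines after IL-1α 3 were called, and 2 at 2-fold, again without *Mapkapk3*. With no minimum mean 4 were called in each of these comparisons, through *Mapk12*. The number of members called for the IL-1α response of +*GFP* cells was 2, and it was 1 with a pseudocount of 5 and 1 at 2-fold, since *Mapk11* is at 5 and 3 there. The number of members whose responses differed between the lines by at least 1.5-fold was 1, and it was 2 with a pseudocount of 0.5, again through *Mapk11*. Members beyond counting error numbered 4 between the lines in untreated cells and 6 with scaling to *Gapdh*. After IL-1α they numbered 8, and 7 with trimmed-mean (TMM) or total-count scaling or with 0.5 reads per normalized count, and 6 with *Gapdh*. With 0.5 and 1.5 reads they numbered 2 and 3 for the response with *GFP* (2 as reported) and 2 and 4 for the response of the rescued line (3 as reported). No paired analysis was possible because there is 1 library per condition and the libraries carry no replicate numbers, and for the same reason no library could be left out. Values of *Mapk11* and *Mapk12* in the line with *GFP* and of *Mapk13* are limited by depth.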

Other observations

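The genes with profiles nearest to 3 of the kinases, by Euclidean distance of centred log2 values over the 4 libraries among the 10585 genes whose mean reached 50, were as follows. For *Mapkapk2* they were *Eya1*, a developmental phosphatase and transcriptional coactivator (distance 0.384), with 4 and 16 normalized counts in untreated and treated +*GFP* and 310 and 427 in +*MK2* cells, *Trim2* (0.456), with 6 and 19 against 350 and 347, and *Bach2os* (0.502), with 1 and 7 against 133 and 121. Only 2 genes were within 0.5 of *Mapkapk2*. For *Mapkapk3* they were *Mtmr14* (0.0349), with 653 and 750 against 439 and 466, *Phlpp1* (0.0402), with 825 and 902 against 526 and 552, and the Janus kinase gene *Tyk2* (0.0512), with 1277 and 1479 against 874 and 917. Within 0.1 of *Mapkapk3* were 17 genes, and within 0.1 of *Map2k3*, whose nearest were *Enoph1*, *Lsm3* and *Arpp19*, were 1484, so a flat profile like that of MKK3 was common. For *Mapk11*, chosen after its values were seen, the nearest were *Dmpk* (0.200), with 29 and 23 against 890 and 907, *Emb* (0.301), with 27 and 24 against 914 and 871, and the casein gene *Csn3* (0.316), with 3 and 1 against 99 and 105. A likeness over 4 libraries, of which a pair belongs to each line, describes these libraries only.

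Among the macrophage markers, the level differed between the lines for some genes. *Mertk*, a receptor for apoptotic cells, had 421 and 364 normalized counts in the line with *GFP* and 1093 and 1168 in the rescued line. *Adgre1*, which encodes F4/80, had 3978 and 4140 against 6832 and 6330, and the Fc receptor gene *Fcgr1* had 1226 and 1194 against 2108 and 2216. *Cd14*, the LPS coreceptor, had 3652 and 8072 against 1962 and 2250. Their part in the differences of *Mapkapk3* and *Mapk11* was not tested.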
